A study of Mus musculus with 8 samples.

Results

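The 32 genes described here are those of glucose uptake, glycolysis, lactate handling and the response to low oxygen, chosen by name from 54838 genes counted in 8 RNA-seq libraries of mouse skin epidermis. The choice was made with earlier results of these data known. All 32 passed the filter on low counts, which kept 17839 genes, so every member was tested. The epidermis was isolated with trypsin, as the series' design text says, and compared control mice with Ovol1/2 iDKO mice, whose label names Ovol1 and Ovol2, a pair of zinc-finger transcription factors of epithelia. Libraries were made at 25 and at 52 DPI, 2 for each genotype at each time, numbered replicate 1 and replicate 2. The labels call them biological replicates and give no strain, age or sex. Neither the alleles, nor the driver of the deletion, nor the meaning of DPI is given in the sources used here. The series' title asks how epithelial plasticity, the skin barrier, inflammation and metabolism of the whole body are connected.

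Glycolysis splits glucose into pyruvate, and lactate dehydrogenase turns pyruvate into lactate when pyruvate is not burnt in mitochondria. The transcription factor HIF-1 raises most of these genes in cells short of oxygen, because oxygen-dependent prolyl hydroxylases otherwise mark its alpha subunit for destruction. Epidermis has no blood vessels of its own, makes lactate readily even with oxygen present, and holds HIF-1 activity in normal skin.

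No member passed the test for a genotype or time difference. The most regular pattern was one of direction. Of the 32 members, 11 (34.4%) had a lower level in the library labelled iDKO than in the control of the same replicate number in both 25 DPI pairs, and a higher level in both 52 DPI pairs. Over all tested genes 8.06% did so. Since the list was chosen with earlier results of these data known, these shares are a description and not a test. The 11 were the enzymes Gpi1, Pfkl, Aldoa, Aldoc, Tpi1, Gapdh, Pgk1, Pgam1 and Eno1, with Egln3 and Car9. With the counts of the second strand in the replicate 2 libraries, 9 did so (7.54% of all tested genes): Pfkl and Pgk1 dropped out. Just 2 members, Ndrg1 and Adm, went the other way, against 8.4% of all tested genes. On the second strand alone, with the same scaling, Ndrg1 had a log2 ratio of 0.02 in 52 DPI pair 2, against -0.02 without regard to strand. The test of the difference between the 2 times did not pass for any member.

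The libraries held 9824307 to 50711381 counts. The 4 replicate 1 libraries and the 4 replicate 2 libraries were not of one kind: 49.76% to 49.97% of counts fell on the second strand in replicate 1 and 95.4% to 95.7% in replicate 2. Values are CPM, counts scaled to a fixed library size with TMM factors, which correct for library composition. The counts of Ovol1 and Ovol2 went against the genotype labels. Ovol1 was at 36.3 to 157 CPM in the control libraries and 99.0 to 204 CPM in those labelled iDKO, Ovol2 was at 7.52 to 24.9 and 9.16 to 44.6 CPM, and both were higher in the library labelled iDKO of every pair. These counts are over whole genes, and which exons the deletion removes is not given, so every direction below follows the label alone. Uty, Kdm5d, Ddx3y and Eif2s3y, on the Y chromosome, had counts in all 4 libraries at 25 DPI and 0 counts in all 4 at 52 DPI, so time and sex cannot be told apart. Basal keratinocyte markers (Krt5, Krt14 and 6 others) summed to 26305 to 51648 CPM, and the endothelial markers, 5 genes, to at most 3.37 CPM. Control 25 DPI replicate 1 stood apart: its melanocyte markers summed to 367 CPM against at most 61 in the other 7 libraries. Its erythroid (111 CPM), T cell (697 CPM), Langerhans cell (1770 CPM) and hair follicle (11322 CPM) sums were the highest of all libraries too. The iDKO 52 DPI replicate 2 library also stood apart: its basal keratinocyte sum of 26305 CPM was the lowest, against 49109 CPM in the control of its pair. Hair follicle markers summed there to 11244 against 2885 CPM and erythroid markers to 18.3 against 0.86 CPM. With bulk epidermis, fewer cells of a type and less RNA per cell cannot be told apart.

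HIF-1 binds a short core, ACGTG or GCGTG, in the control regions of its targets. RefSeq (GRCm38.p6) gave 45 promoter windows of 300 bases, from 250 before to 50 after the start, for 30 of the 32 members, and Bnip3l and Ndrg1 had none in the table. At least 1 core on either strand was found in 36 of the 45 windows (80.0%), against 43.8% of all 32851 windows of that length and 59.0% of the 14995 windows of tested genes. The members' windows were richer in G and C, with a median of 62.3% against 52.7% in all windows and 60.0% in those of tested genes. The palindrome CACGTG, which holds ACGTG on each strand and so counts 2 times, was in 11.1% of the members' windows, 7.15% of all and 9.30% of those of tested genes. The core TAACGG of Ovol proteins was in 2.22% of the members' windows, 2.76% of all and 3.54% of those of tested genes. These shares are descriptions of letters and say nothing of binding. The 250 bases before the start are shown for 5 members with a single window: Pgk1, Egln3 and Car9 of the 11 with opposite directions, Adm, which went the other way, and Bnip3, lower in the library labelled iDKO in all 4 pairs. Capitals mark the cores, which read CACGT or CACGC where they lie on the other strand.
Pgk1 (chrX:106186850-106187099, + strand): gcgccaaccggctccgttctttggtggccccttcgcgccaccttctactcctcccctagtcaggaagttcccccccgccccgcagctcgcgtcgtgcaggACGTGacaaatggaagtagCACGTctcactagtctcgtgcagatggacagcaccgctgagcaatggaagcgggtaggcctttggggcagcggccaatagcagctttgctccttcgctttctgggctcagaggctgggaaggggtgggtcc
Egln3 (chr12:54203875-54204124, - strand): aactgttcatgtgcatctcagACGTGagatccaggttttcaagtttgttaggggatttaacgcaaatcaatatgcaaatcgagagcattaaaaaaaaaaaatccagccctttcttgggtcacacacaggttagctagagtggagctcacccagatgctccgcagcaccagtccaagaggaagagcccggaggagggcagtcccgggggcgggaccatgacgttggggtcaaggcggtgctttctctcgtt
Car9 (chr4:43506776-43507025, + strand): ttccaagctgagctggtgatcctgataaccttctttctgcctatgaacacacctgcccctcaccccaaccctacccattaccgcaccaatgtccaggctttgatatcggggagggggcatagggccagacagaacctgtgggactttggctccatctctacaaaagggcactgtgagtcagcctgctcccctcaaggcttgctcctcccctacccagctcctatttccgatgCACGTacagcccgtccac
Bnip3 (chr7:138909507-138909756, - strand): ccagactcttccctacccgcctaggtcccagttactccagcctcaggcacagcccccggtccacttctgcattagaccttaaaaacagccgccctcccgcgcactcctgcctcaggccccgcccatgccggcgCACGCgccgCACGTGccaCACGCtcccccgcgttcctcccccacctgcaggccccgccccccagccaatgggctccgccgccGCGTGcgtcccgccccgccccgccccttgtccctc
Adm (chr7:110627407-110627656, + strand): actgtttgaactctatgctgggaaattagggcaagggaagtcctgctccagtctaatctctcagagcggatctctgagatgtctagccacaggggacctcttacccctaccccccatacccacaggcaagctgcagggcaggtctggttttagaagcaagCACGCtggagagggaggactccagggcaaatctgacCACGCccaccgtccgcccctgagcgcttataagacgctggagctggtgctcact
The cores began 150 and 131 bases before the start in Pgk1, 229 bases before in Egln3 and 18 in Car9. Bnip3 held 5 cores, at 117, 108, 107, 99 and 35 bases, of which the pair at 108 and 107 is 1 CACGTG palindrome. Adm held 2, at 90 and 54 bases, both of the GCGTG kind on the other strand. All 5 windows shown held a core, including those of genes that went opposite ways. Gpi1 and Tpi1, also among the 11 and with a single window each, held no core and are not shown.

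**Figure D1:**
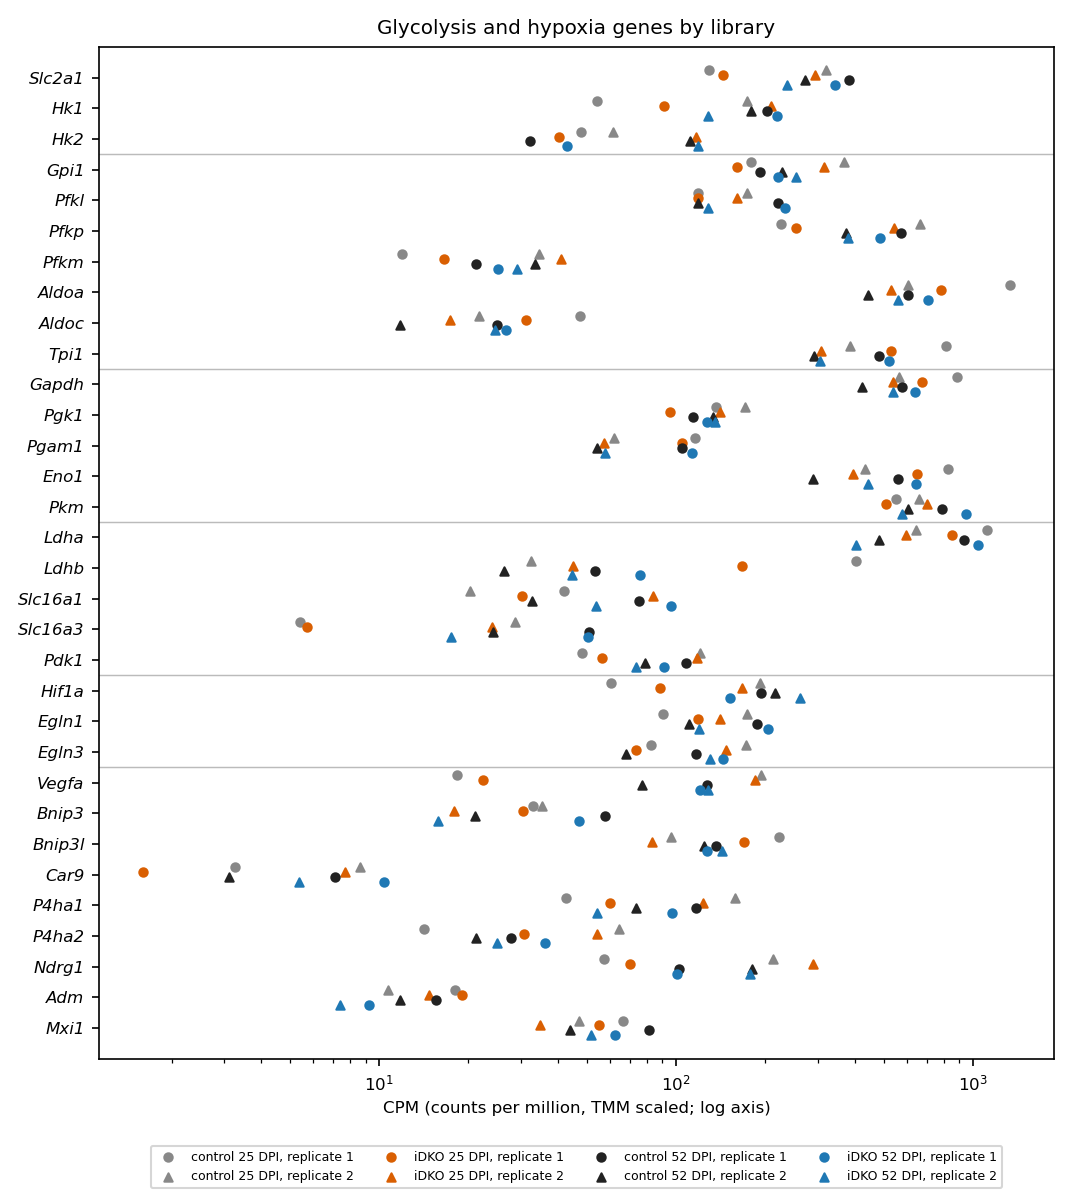
Level of each of the 32 members in every library, in CPM on a log axis; circles are replicate 1, triangles replicate 2, colours the 4 groups, and grey lines part the 6 roles. Circles and triangles of 1 colour lie far apart for many genes, such as Vegfa at 25 DPI (18.3 and 193 CPM in control), while the genotypes of 1 replicate number often lie close together.

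Glucose uptake and the first phosphorylation showed no common direction. Slc2a1, the glucose transporter GLUT1 and the main one of keratinocytes, measured 129 and 321 CPM (control; replicate 1, then 2, here and below) against 144 and 293 CPM (labelled iDKO) at 25 DPI. Its 52 DPI values were 383 and 271 CPM (control) against 342 and 237 CPM (labelled iDKO). The groups overlapped at both times, and within pairs Slc2a1 was higher in the library labelled iDKO once and lower 3 times.

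Hk1 and Hk2 are hexokinases, which trap glucose in the cell as glucose 6-phosphate, and Hk2 is the HIF-responsive one. Hk1 stood at 54.1 and 173 CPM in 25 DPI controls, with 91.1 and 209 CPM in the libraries labelled iDKO, and at 203 and 179 against 219 and 128 CPM at 52 DPI. It was higher in the library labelled iDKO in both pairs at 25 DPI, with a log2 fold change of 0.40 (SE 0.71), but the groups overlapped. That value was -0.23 without control 25 DPI replicate 1 and -0.30 without iDKO 25 DPI replicate 2. Hk2 measured 47.9 and 61.3 CPM (control) against 40.3 and 117 CPM (labelled iDKO) at 25 DPI, and 32.3 and 111 against 42.9 and 118 CPM at 52 DPI. Replicate 2 held more Hk2 than replicate 1 in all 4 groups. Hk2 took 26.1% to 47.0% of the Hk1 plus Hk2 counts at 25 DPI. At 52 DPI its share was 13.7% and 16.4% in the replicate 1 libraries and 38.3% and 48.0% in the replicate 2 libraries, control first, a split by replicate number with the library labelled iDKO higher in each pair.

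The 7 genes of upper glycolysis, from glucose 6-phosphate isomerase to the triose phosphates, had 5 of the 11 opposite directions. At 25 DPI 6 of the 7 had a negative fitted log2 fold change and at 52 DPI 5 of 7 a positive one, with medians of -0.20 and 0.10 against -0.03 and -0.01 over all tested genes. Aldoa, the main aldolase, which cleaves fructose 1,6-bisphosphate (chromosome 7, 126795234 to 126800751), stood at 1337 and 606 CPM in 25 DPI controls, with 781 and 529.6 CPM in the libraries labelled iDKO. Control libraries held 606 and 444 CPM at 52 DPI, those labelled iDKO 705 and 558 CPM. Each library labelled iDKO was below its own control at 25 DPI and above it at 52 DPI, though the groups overlapped at both times. The log2 fold change was -0.57 (SE 0.62) at 25 DPI, and its difference between times 0.83 (SE 0.87, adjusted p = 1.00 in edgeR's quasi-likelihood test with Benjamini-Hochberg adjustment).

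Aldoc, a second aldolase at a far lower level, measured 47.7 and 21.8 CPM (control) against 31.1 and 17.3 CPM (labelled iDKO) at 25 DPI. The 52 DPI libraries gave 25.0 and 11.8 CPM for control against 26.7 and 24.6 CPM labelled iDKO, so the 52 DPI difference lay mostly in pair 2 (2.09-fold). Its log2 fold change was -0.52 (SE 0.61) at 25 DPI and 0.48 (SE 0.61) at 52 DPI. Aldoc kept a small share of the aldolase counts, 2.58% to 4.22% in the 8 libraries.

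Tpi1, triose phosphate isomerase, stood at 812 and 384 CPM in 25 DPI controls, with 529.8 and 307 CPM labelled iDKO. At 52 DPI the values were 482 and 292 against 519.7 and 306 CPM, a difference of 1.08-fold and 1.05-fold in the 2 pairs. Most of the contrast between times in Tpi1 thus lay at 25 DPI, where the ratio was 0.65 in pair 1 and 0.80 in pair 2. The fitted 25 DPI values of these 3 genes leaned on control 25 DPI replicate 1, without which they were 0.07 for Aldoa, 0.10 for Aldoc and 0.07 for Tpi1, against -0.52 for Tpi1 with all libraries.

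Among the phosphofructokinases, which commit sugar to glycolysis, Pfkm, the muscle-type isoform, measured 11.96 and 34.7 CPM (control) against 16.5 and 40.9 CPM (labelled iDKO) at 25 DPI. At 52 DPI it was at 21.2 and 33.4 against 25.1 and 29.1 CPM. It was higher in 3 of 4 pairs and the groups overlapped. Pfkp, the platelet-type isoform, was the most abundant, with 63.3% to 76.2% of the phosphofructokinase counts, at 226 to 665 CPM. Pfkl, the liver-type isoform, was at 119 to 232 CPM, and it counts among the 11 on a bare difference: in 25 DPI pair 1 it was at 118.8 CPM in control and 118.6 CPM labelled iDKO. Gpi1, the isomerase, lay between 161 and 369 CPM, with ratios of 0.90 and 0.86 at 25 DPI and 1.15 and 1.12 at 52 DPI.

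The 5 genes of lower glycolysis, where ATP and pyruvate are made, had 4 of the 11 opposite directions, and Pkm was the exception. At 52 DPI all 5 had a positive fitted log2 fold change (0.09 to 0.35). At 25 DPI 4 of 5 were negative. Pgk1, phosphoglycerate kinase, whose promoter is shown above, stood at 136 and 170.2 CPM in 25 DPI controls, with 95.5 and 140.2 CPM in the libraries labelled iDKO. Its 52 DPI values were 114 and 133 CPM (control) against 127 and 135 CPM (labelled iDKO). Pgk1 was the steadiest member, with a highest library only 1.8 times its lowest. Its log2 fold change at 25 DPI was -0.38 (SE 0.47). On the second strand alone, scaled by the same factors, its 52 DPI pair 2 was at 132.8 CPM in control and 130.7 CPM labelled iDKO, the opposite order.

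Eno1, enolase (chromosome 4, 150236721 to 150248879), measured 827 and 432 CPM (control) against 648 and 394 CPM (labelled iDKO) at 25 DPI, and 559 and 290.0 against 641 and 442 CPM at 52 DPI. The 52 DPI log2 fold change was 0.35 (SE 0.64), and -0.03 without control 52 DPI replicate 2. Eno1b, a near-identical copy, makes Eno1 uncertain. It held 8.17% to 9.77% as many counts as Eno1 in the replicate 1 libraries, 7.13% in control 52 DPI replicate 2 and 0.18% to 0.35% in the other 3 replicate 2 libraries. With both genes summed, the log2 ratios of the 4 pairs were -0.34 and -0.13 at 25 DPI and 0.18 and 0.52 at 52 DPI, so the directions stood. Gapdh, at 424 to 885 CPM, and Pgam1, at 54.1 to 116 CPM, had ratios of 0.76 to 0.96 at 25 DPI and of 1.06 to 1.27 at 52 DPI. Pkm, pyruvate kinase, at 510 to 948 CPM, was lower in pair 1 and higher in pair 2 at 25 DPI and the reverse at 52 DPI.

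The 12 enzymes from Gpi1 to Pkm together summed to 5245 and 4140 CPM in control and 3922 and 3742 CPM labelled iDKO at 25 DPI. Control libraries held 4259 and 3008 CPM at 52 DPI, those labelled iDKO 4684 and 3432 CPM. The groups did not overlap at 25 DPI, where control 25 DPI replicate 1 was the highest of all 8, and overlapped at 52 DPI. Of all tested genes, taken singly, 5.15% lay lower without overlap in the libraries labelled iDKO at 25 DPI. In CPM per kilobase of exon, the highest median levels over the 8 libraries were those of Ldha (225.5), Aldoa (208), Tpi1 (157), Gapdh (138), Pkm (126) and Eno1 (93.1). The length used joins the exons of all annotated transcripts of a gene and can exceed that of the RNA made. The order thus depends on the annotation and compares genes only roughly. The ranges of neighbours in that order overlapped, and Car9 (2.71), Slc16a3 (4.53) and P4ha2 (4.69) were the lowest. These levels are without regard to strand, and Aldoa counts on the second strand were 118% to 121% of them in the replicate 2 libraries.

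**Figure D2:**
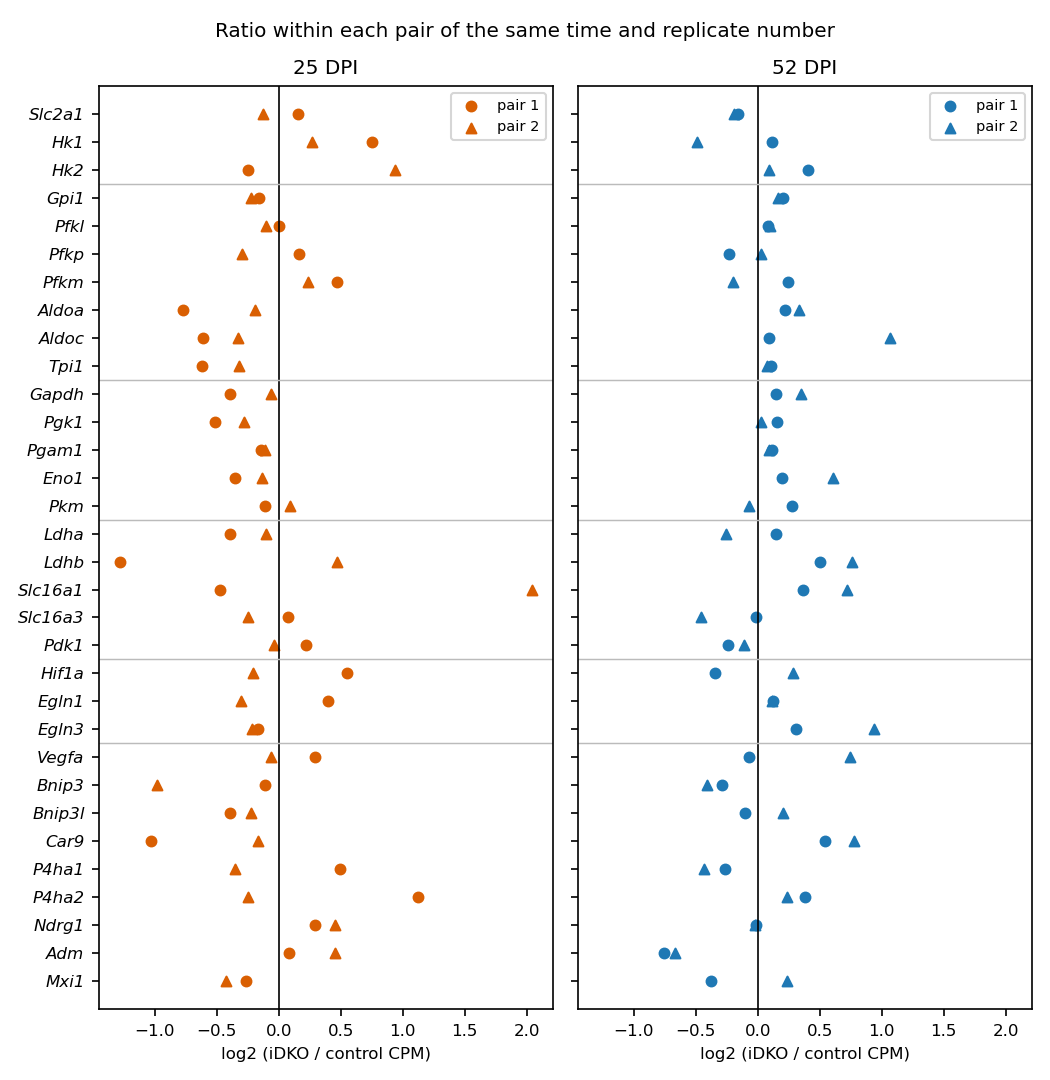
Log2 ratio of the library labelled iDKO to the control library of the same time and replicate number, for each member; left, 25 DPI, right, 52 DPI, circles pair 1, triangles pair 2. In the enzyme block from Gpi1 to Eno1 most points lie left of 0 at 25 DPI and right of 0 at 52 DPI, while Slc16a1 reaches 2.04 in one 25 DPI pair and Adm lies at -0.75 and -0.67 at 52 DPI.

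Pyruvate and lactate genes did not share the pattern of the enzymes above them. Ldha, the muscle-type subunit of lactate dehydrogenase, which favours lactate, stood at 1118 and 641 CPM in 25 DPI controls, with 852 and 596 CPM labelled iDKO. The 52 DPI libraries gave 936 and 481 CPM for control against 1037 and 402 CPM labelled iDKO, higher in pair 1 and lower in pair 2. Ldhb, the heart-type subunit, varied most of all members. It measured 405 and 32.4 CPM (control) against 167 and 44.8 CPM (labelled iDKO) at 25 DPI, and 53.4 and 26.4 against 75.6 and 44.6 CPM at 52 DPI.

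The high Ldhb value came from control 25 DPI replicate 1, the library whose melanocyte, erythroid, T cell and Langerhans cell markers were also highest. There Ldhb took 26.6% of the Ldha plus Ldhb counts (95% Wilson interval 26.0% to 27.2%, counting error only), against 16.4% in the library labelled iDKO of the same pair and 4.82% to 9.98% in the other 6. The fitted log2 fold change of Ldhb was -1.05 (SE 1.12) at 25 DPI and 1.64 without that library. Between times in control it was -2.45 (SE 1.16) and 0.29 without it. The part of other cell types in Ldhb was not tested.

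Slc16a1 and Slc16a3 encode the lactate transporters MCT1 and MCT4, the latter a HIF target linked to lactate export. Slc16a1 stood at 42.0 and 20.3 CPM in 25 DPI controls, with 30.3 and 83.6 CPM in the libraries labelled iDKO. Its 52 DPI values were 75.0 and 32.8 CPM (control) against 96.4 and 54.0 CPM (labelled iDKO). It had the largest positive fitted difference of a member across both times, a log2 fold change of 0.68 (SE 0.47, adjusted p = 1.00 in edgeR's quasi-likelihood test), resting mainly on a 4.13-fold ratio in 25 DPI pair 2. At 25 DPI alone its log2 fold change was 0.87 (SE 0.72), and -0.04 without iDKO 25 DPI replicate 2.

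Slc16a3 measured 5.43 and 28.6 CPM (control) against 5.70 and 24.1 CPM (labelled iDKO) at 25 DPI, and 50.8 and 24.1 against 50.4 and 17.5 CPM at 52 DPI. Its level followed time in the replicate 1 libraries and not in the replicate 2 libraries. Of the counts of this pair of transporters Slc16a3 took 11.4% in control 25 DPI replicate 1 and 15.8% in the library labelled iDKO of that pair. It took 58.5% in control 25 DPI replicate 2 and 22.3% in its counterpart, so the pairs went opposite ways at 25 DPI. At 52 DPI its share was 40.4% and 42.4% in control and 34.3% and 24.5% labelled iDKO, lower in both pairs. Pdk1, the kinase that shuts pyruvate dehydrogenase, lay between 48.4 and 120 CPM, with ratios within pairs of 0.85 to 1.17.

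**Figure D3:**
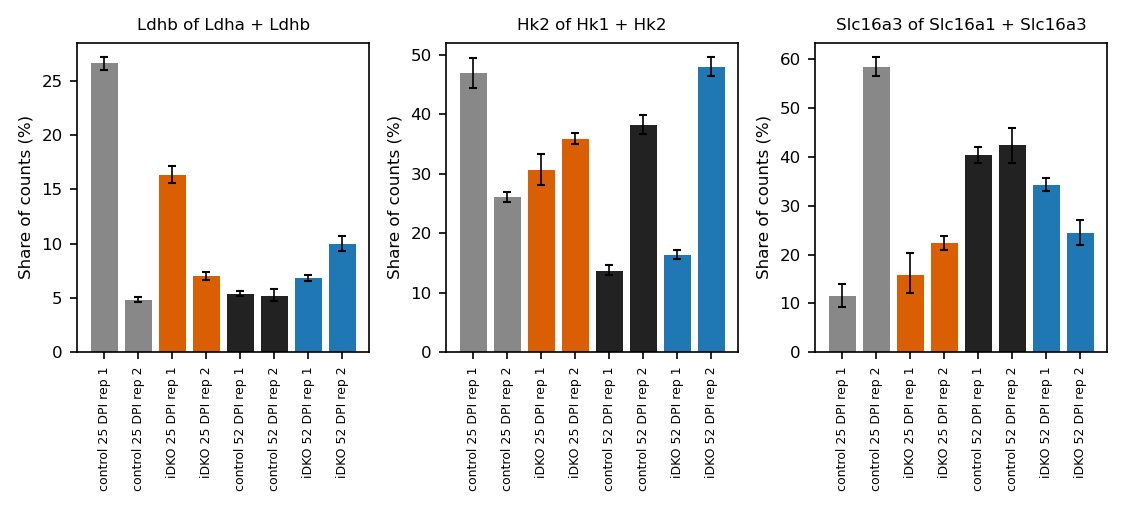
Share of counts, in percent, taken by Ldhb, Hk2 and Slc16a3 within their isozyme or transporter pair in each of the 8 libraries; bars are libraries coloured by group, and whiskers are 95% Wilson intervals of counting error. Ldhb is highest in control 25 DPI replicate 1 (26.6%), and the Hk2 share at 52 DPI is higher in the replicate 2 libraries (38.3% and 48.0%) than in the replicate 1 libraries (13.7% and 16.4%).

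Of the oxygen-sensing genes, Egln3 was the one whose genotype groups did not overlap at 52 DPI. Egln3, the prolyl hydroxylase PHD3 and itself a strong HIF target (chromosome 12, 54178981 to 54203860), stood at 117 and 67.9 CPM in 52 DPI controls, with 144 and 130.2 CPM in the libraries labelled iDKO. Both libraries labelled iDKO lay above both controls there, as they did for 11.9% of all tested genes. At 25 DPI the Egln3 values were 82.3 and 172 CPM (control) against 73.1 and 148 CPM (labelled iDKO), slightly lower in each pair. Its log2 fold change was 0.57 (SE 0.61) at the later time and -0.20 (SE 0.61) at the earlier, a difference of 0.77 (SE 0.86), all with adjusted p = 1.00 in edgeR's quasi-likelihood test. Leaving out a 52 DPI control moved the 52 DPI value to 0.25 (replicate 2) or 1.01 (replicate 1). With 1 library left out the difference between times lay between 0.11, without control 25 DPI replicate 2, and 1.38, without iDKO 25 DPI replicate 2. The 25 DPI value was 0.46 without control replicate 2 and 0.25 without iDKO replicate 1 of that time.

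Hif1a, which encodes the oxygen-regulated alpha subunit of HIF-1, measured 60.5 and 192 CPM (control) against 88.6 and 166 CPM (labelled iDKO) at 25 DPI. Control libraries held 193 and 215 CPM at 52 DPI, those labelled iDKO 152 and 261 CPM, so neither time gave a common direction. The RNA of Hif1a does not measure its protein, which is the part that oxygen controls. Egln1, the prolyl hydroxylase PHD2 and the main oxygen sensor, stood at 90.3 and 174 CPM in 25 DPI controls, with 119 and 141 CPM in the libraries labelled iDKO, and at 188 and 110.4 against 204 and 119.7 CPM at 52 DPI. Its 2 groups overlapped at each time.

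The 9 other HIF targets were mixed, and included the single member lower in every pair. Bnip3, a mitophagy receptor, measured 33.0 and 35.5 CPM (control) against 30.6 and 17.9 CPM (labelled iDKO) at 25 DPI. The 52 DPI libraries gave 57.7 and 21.1 CPM for control against 47.3 and 15.8 CPM labelled iDKO. The groups did not overlap at 25 DPI, as for 5.15% of all tested genes in that direction, and overlapped at 52 DPI. No member had both libraries labelled iDKO above both controls at 25 DPI, against 5.39% of all tested genes. Being lower in all 4 pairs was shared by 6.7% of all tested genes, and no member was higher in all 4, against 6.73%. The log2 fold change of Bnip3 across both times was -0.41 (SE 0.45, adjusted p = 1.00 in edgeR's quasi-likelihood test). It was -0.09 without control 52 DPI replicate 1, -0.19 without iDKO 52 DPI replicate 2 and -0.25 without iDKO 25 DPI replicate 2, and -0.81 without iDKO 52 DPI replicate 1 and -0.64 without control 52 DPI replicate 2. An exact sign-flip permutation test over the 4 pairs gave a two-sided p = 0.125, the smallest that 4 pairs allow. Every gene with 1 direction in all 4 pairs has this value, so it adds nothing to the direction itself. Bnip3 overlaps Gm45507 on the opposite strand, and counted on the second strand alone it was 195% to 226% of its level without regard to strand in the replicate 2 libraries. On that strand the log2 ratios of the replicate 2 pairs were -0.94 at 25 DPI and -0.47 at 52 DPI.

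Adm, the vasodilator peptide adrenomedullin, stood at 15.6 and 11.8 CPM in 52 DPI controls, with 9.23 and 7.39 CPM in the libraries labelled iDKO. Both libraries labelled iDKO lay below both controls, as for 10.2% of all tested genes. The 25 DPI values were 18.0 and 10.7 CPM (control) against 19.0 and 14.7 CPM (labelled iDKO), higher in each pair with overlapping groups. Its log2 fold change was -0.72 (SE 0.50) at the later time and 0.23 (SE 0.50) at the earlier, a difference of -0.95 (SE 0.70), with adjusted p = 1.00 for each in edgeR's quasi-likelihood test. The 25 DPI value was -0.06 without control 25 DPI replicate 2. With the replicate number of each time as a block, the difference was -0.99 (SE 0.38) with an adjusted p = 0.793 in the same test.

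Vegfa, which draws blood vessels, measured 18.3 and 193 CPM (control) against 22.5 and 185 CPM (labelled iDKO) at 25 DPI. Its 52 DPI values were 127 and 76.6 CPM (control) against 121 and 128 CPM (labelled iDKO). The 25 DPI libraries split by replicate number, and within each number the genotypes lay close together. Car9, the carbonic anhydrase CAIX at the cell surface and a common hypoxia marker, was the lowest member, with 3.27 and 8.62 CPM (control) against 1.60 and 7.66 CPM (labelled iDKO) at 25 DPI. Control libraries held 7.12 and 3.13 CPM at 52 DPI, those labelled iDKO 10.4 and 5.36 CPM. Its difference between times was 0.96 (SE 1.28) in log2. Car9 overlaps Gm12454 on the opposite strand, and 54.5% and 57.8% of its counts lay on the second strand in the replicate 2 libraries at 25 DPI against 87.8% and 95% at 52 DPI, so a good part of its 25 DPI counts there ran on the other strand.

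P4ha2, a collagen prolyl hydroxylase subunit, stood at 14.1 and 64.3 CPM in 25 DPI controls, with 30.8 and 54.2 CPM in the libraries labelled iDKO, and at 27.8 and 21.2 against 36.1 and 24.9 CPM at 52 DPI. It was higher in 3 of 4 pairs. Its partner P4ha1, at 42.5 to 158 CPM, was lower in 3 of 4. Ndrg1, a differentiation and stress gene of epithelia, lay between 57.1 and 289 CPM, with ratios of 1.22 and 1.37 at 25 DPI and 0.99 and 0.98 at 52 DPI. Bnip3l, a second mitophagy receptor, lay between 82.8 and 222 CPM and Mxi1, an antagonist of MYC, between 34.9 and 81.2 CPM, each lower in 3 of 4 pairs.

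Across the members, the median fitted log2 fold change was -0.15 at 25 DPI, with 10 positive and 22 negative, and 0.09 at 52 DPI, with 21 positive and 11 negative. The medians over all tested genes were -0.03 and -0.01. Within pairs the member medians were -0.13 and -0.15 at 25 DPI and 0.11 and 0.09 at 52 DPI. The standard errors of single members in this fit, which leaves out the replicate number, were far larger, with a median of 0.65 at either time. With the replicate number as a block within time they were smaller for Pgk1, Tpi1, Bnip3 and Slc16a1 at 25 DPI. There they were 0.20, 0.23, 0.26 and 0.57, against 0.47, 0.65, 0.70 and 0.72 without it. With 2 libraries a group, no member passed in either fit. At 25 DPI edgeR's quasi-likelihood test called 0 of 17839 genes (0%) at an adjusted p under 0.05, with 75 genes and 0 members at an unadjusted p under 0.05. At 52 DPI it called 0 (0%), with 143 genes and 0 members unadjusted. Across both times it called 0 (0%), with 130 genes and 0 members unadjusted, and for the difference between times 0 (0%), with 139 genes and 0 members unadjusted.

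The replicate number tracked large differences between libraries, and DESeq2 with it as a block within each time called more genes. It called 103 genes (0.577%) at 25 DPI, 35 (0.196%) at 52 DPI, 73 (0.409%) across both times and 39 (0.219%) for the difference, and no member among them. In edgeR with the same block, the difference between times had unadjusted p-values of 0.038 for Adm, 0.039 for Aldoc and 0.042 for Egln3, each with an adjusted p = 0.793. At 52 DPI alone the blocked edgeR test gave adjusted p = 1.00 for both Egln3 and Adm. The members with the block are plotted by their effect at each time.

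**Figure D4:**
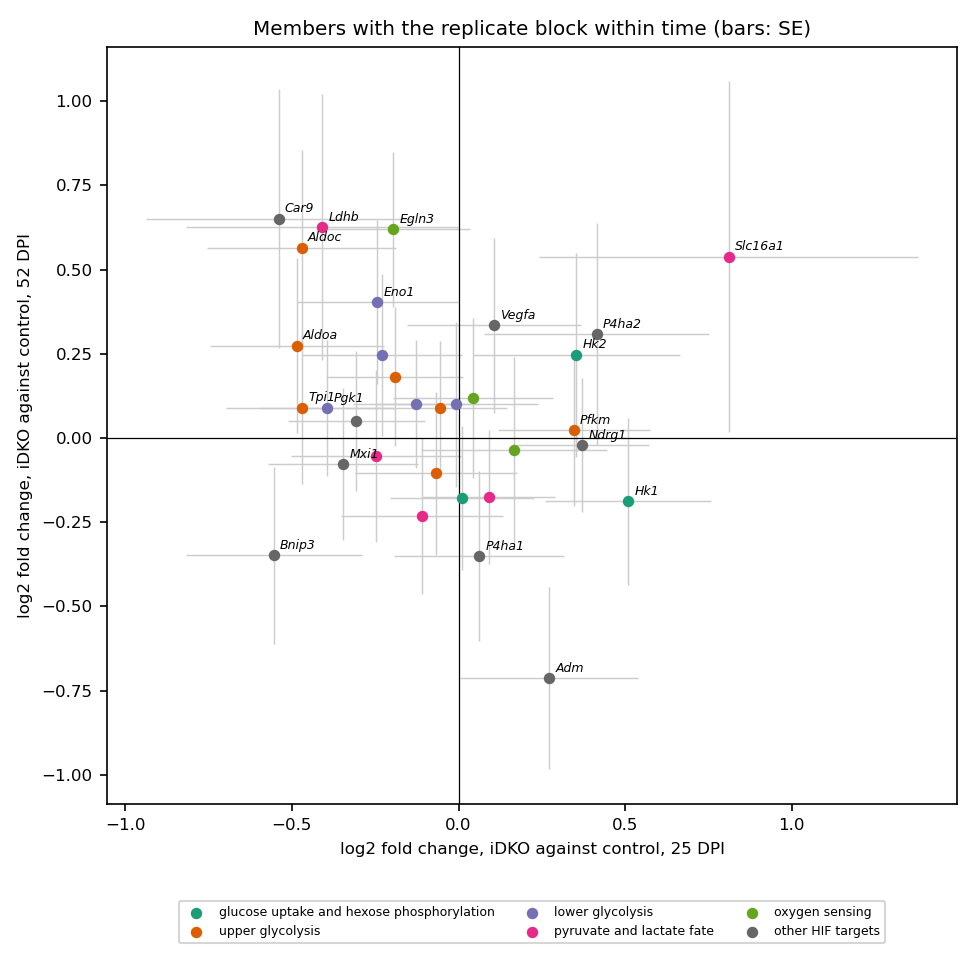
Log2 fold change of each member, library labelled iDKO against control, at 25 DPI (x axis) and 52 DPI (y axis), from edgeR with the replicate number as a block within time; bars are standard errors and colours roles. The upper left part holds the enzymes with opposite directions, Adm lies lowest at 52 DPI (-0.71) and Bnip3 is negative at both times (-0.55 and -0.35).

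Of the marker lists of other cells, that of T cells had the directions of the 11 members in every pair. All 7 T cell markers (Cd3e, Cd3d, Cd3g, Trac, Cd8a, Trdc and Tcrg-C1), none at 0 counts in any library, were lower in the library labelled iDKO in both 25 DPI pairs and higher in both 52 DPI pairs, as the 11 members were. Their sum was 697 and 111 CPM in control and 220 and 72.7 CPM labelled iDKO at 25 DPI, and 232 and 82.0 against 295 and 450 CPM at 52 DPI. Langerhans cell markers, 5 genes, did not share this: all 5 were lower in 25 DPI pair 1 and higher in 25 DPI pair 2. They summed to 1770 and 216 against 792 and 571 CPM at 25 DPI and to 744 and 568 against 1287 and 1110 CPM at 52 DPI. Basal keratinocyte markers had the reverse directions in part, with 7 of 8 higher in 25 DPI pair 1, 3 of 8 higher in pair 2, and 7 and 8 of 8 lower in the 52 DPI pairs. Of 10 genes of dissociation stress 8 were higher in 25 DPI pair 1, 4 were higher in pair 2, and 9 and 8 were lower in the 52 DPI pairs. The hair follicle markers summed to 11322 and 2509 CPM in control against 4460 and 3785 CPM labelled iDKO at 25 DPI, and to 3698 and 2885 against 4799 and 11244 CPM at 52 DPI. Erythroid markers followed the replicate number, all 5 lower in pair 1 and all 5 higher in pair 2 at both times. Dermal fibroblast markers, 6 genes, summed to 7.91 and 51.9 CPM in control against 9.81 and 160 CPM labelled iDKO at 25 DPI. At 52 DPI their sums were 15.8 and 16.8 against 16.6 and 117 CPM. The 8 skeletal muscle markers summed to at most 23.3 CPM and the 5 adipocyte markers to at most 5.82 CPM in any library. Of the 5 muscle markers tested, 4 were lower in each 25 DPI pair, and 3 were higher in each 52 DPI pair. The part of these cells and of dissociation stress in the pattern of the 11 members was not tested.

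Between 25 and 52 DPI in control, the groups of Hk1 and Hif1a lay higher at 52 DPI without overlap (11% of all tested genes) and those of Aldoa and Pgk1 lower (9.7%). For Aldoa this was a bare difference, 606.44 CPM in the lower 25 DPI control and 606.41 CPM in the higher 52 DPI control. The log2 change of Hif1a was 0.69 (SE 0.69), that of Aldoa -0.89 (SE 0.62) and that of Slc16a3 1.14 (SE 1.00). In libraries labelled iDKO, Adm lay lower at 52 DPI without overlap (8.75% of all tested genes), with a log2 change of -1.02 (SE 0.50), and no member lay higher without overlap (11.6%). Slc16a3 differed by 1.18 (SE 1.00) and Hif1a by 0.70 (SE 0.69), values near those in control, though Hif1a in libraries labelled iDKO overlapped between times. No member passed, with adjusted p = 1.00 throughout in edgeR's quasi-likelihood test. That test called 0 genes (0%) in control, with 269 genes and 0 members at an unadjusted p under 0.05, and 0 (0%) in those labelled iDKO, with 298 genes and 0 members. DESeq2 with the replicate number as a block shared over both times called 40 genes (0.224%) in control. It called 29 (0.163%) in those labelled iDKO, and no member in either. Differences between times cannot be told apart from the difference in sex between the libraries.

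The replicate number moved the members in opposite senses at the 2 times. At 25 DPI the median member was higher in replicate 2 than in replicate 1, by 0.44 (log2) in control and 0.68 in libraries labelled iDKO, with 20 of 32 higher in each. At 52 DPI it was lower, by -0.64 and -0.44, with 6 and 8 of 32 higher. The medians over all tested genes were 0.06, 0.06, -0.03 and 0.00 in the same order. At 25 DPI replicate 2 held more Vegfa, Hif1a, Slc2a1 and Hk1 but less Aldoa, Tpi1, Eno1 and Ldha, in control and in libraries labelled iDKO alike.

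The neighbouring pathways gave little more. Their genes named as higher or lower in all 4 pairs were picked for that. Of all tested genes 6.73% were higher and 6.7% lower in all 4 pairs. Of 26 other glycolysis isozymes and regulators 21 were tested, and none was called by edgeR or by DESeq2 with the block. The glucose transporter GLUT3 gene Slc2a3 was higher in the library labelled iDKO of all 4 pairs, with 3.01 and 3.71 CPM (control) against 4.33 and 6.93 CPM (labelled iDKO) at 25 DPI and 3.86 and 4.47 against 7.13 and 6.21 CPM at 52 DPI. Its groups did not overlap at either time, as for 5.39% of all tested genes in that direction at 25 DPI and 11.9% at 52 DPI. The log2 fold change of Slc2a3 across both times was 0.71 (SE 0.35, adjusted p = 1.00 in edgeR's quasi-likelihood test). Pfkfb4, which makes the activator of phosphofructokinase, was also higher in all 4 pairs, by 0.49 in log2 (SE 0.40).

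Bsg, basigin, which carries the lactate transporters to the membrane, was lower in all 4 pairs, with 736 and 206 CPM (control) against 542 and 154 CPM (labelled iDKO) at 25 DPI. Of the 26 genes of pyruvate dehydrogenase and the citric acid cycle, all tested, 20 had a negative log2 fold change at 25 DPI (median -0.22) and 14 a positive one at 52 DPI (median 0.01). Among them 4 (Pdhb, Idh3b, Suclg1 and Fh1) showed the opposite directions of the 11 members and 2 the reverse, against 8.06% and 8.4% of all tested genes. The same counts were 3 and 0 for the other glycolysis isozymes and regulators and 2 and 2 for the pentose phosphate and glycogen branches. They were 1 and 1 for the HIF machinery and 3 and 3 for the further HIF targets. Pdk3, a pyruvate dehydrogenase kinase, was lower in all 4 pairs. Of the 15 genes of the pentose phosphate and glycogen branches, G6pdx, the entry enzyme to the pentose phosphate pathway, was higher in all 4 pairs (log2 0.29, SE 0.29) and Rpe lower.

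Of the 10 genes of the HIF machinery, Epas1, which encodes HIF-2 alpha, was higher in all 4 pairs. It measured 11.7 and 37.0 CPM (control) against 21.1 and 46.2 CPM (labelled iDKO) at 25 DPI, and 9.45 and 27.6 against 10.4 and 48.2 CPM at 52 DPI. Siah1a, a ubiquitin ligase, and Cited2, which competes with HIF for its coactivator, were lower in all 4. Of 31 further HIF targets 30 were tested. For time in control, Stc2 was among those that passed in DESeq2 with the block shared over both times. Stc2, stanniocalcin 2, was at 5.95 and 8.001 CPM at 25 DPI and 0.70 and 0.47 CPM at 52 DPI in control. DESeq2 with that block gave a log2 change of -3.52 (adjusted p = 0.00091), and DESeq2 without a block called Stc2 too. In contrast, edgeR's quasi-likelihood test without a block gave an adjusted p = 1.00.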

How the data were processed

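RNA of trypsin-isolated mouse epidermis was sequenced in 8 libraries made with the SMART-seq v4 kit, per the labels. The deposited files hold read counts per gene in 3 columns, for both strands together and for each strand, as STAR writes them. The submitters' processing notes name STAR 2.5.2a, Trimmomatic 0.35, FastQC 0.11.9, DESeq2 1.24.0 and the builds GRCm38 and mm10. The counts are raw, and rows that name no gene were left out. Gene symbols, lengths and positions came from GENCODE release M21 on GRCm38.

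Since the libraries differ in strand, the strand-blind column was taken. For Slc2a1, Gpi1, Aldoa, Hif1a, Bnip3, Ndrg1 and Mxi1 the second-strand count was over 110% of the strand-blind count in all 4 replicate 2 libraries. Their strand-blind levels thus lie below their second-strand levels in those libraries. Genes were filtered with filterByExpr, scaled by TMM and tested with edgeR 4.0.16 (quasi-likelihood, 1 mean per group, Benjamini-Hochberg over 17839 genes). Standard errors are on the log2 scale and come from this fit unless a block is named. A fit with the replicate number as a block within each time was the alternative, in edgeR and DESeq2 1.42.0. The same numbers deviated together in all 6 pairs of groups (r = 0.40 to 0.83 across genes), so they were taken to pair the libraries. Other alternatives were RLE scaling, no filter, DESeq2 without a block, limma-voom (limma 3.58.1), the second-strand column for replicate 2, and each library left out. Total counts limit the precision of low genes. P-values set a difference against the spread between these libraries, which differ in strand by replicate number. With the block they set it against the spread left after the replicate number is taken out.

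The members and lists were chosen with earlier results of these data known. Values in every library were given for Slc2a1, Hk2, Ldha, Hif1a, Vegfa and Car9, for members of 1 direction in all 4 pairs, for the 2 per role with the smallest unadjusted p across both times in blocked edgeR, and for the 5 with the largest change over time in each genotype. Of each other list, at most 3 genes with 1 direction in all pairs and those called were named, apart from a result that is not reported here. Aldoa has a second identifier with 9 to 54 counts per library, which was not used. The tests were run on simulated data with log2 changes of 2 and 4 at 25 DPI. In edgeR without the block, no member's genotype effect at 25 DPI was as large. The simulated replicate difference was the same at both times, unlike that of these data. Smaller changes were thus not checked.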

Additional observations from a re-analysis of the deposited data

Results flagged for a closer look

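For 13 members the library labelled iDKO was on one side of its control in both 25 DPI pairs and on the other side in both 52 DPI pairs. For none did the test of the difference pass (adjusted p = 1.00 for each in edgeR's quasi-likelihood test). The genotype effect at 52 DPI minus that at 25 DPI, in log2 with its SE, was 0.38 (0.83) for Gpi1, 0.15 (0.81) for Pfkl, 0.83 (0.87) for Aldoa, 1.00 (0.86) for Aldoc and 0.61 (0.92) for Tpi1. In lower glycolysis it was 0.49 (0.77) for Gapdh, 0.46 (0.66) for Pgk1, 0.24 (0.89) for Pgam1 and 0.62 (0.91) for Eno1. Among oxygen-related genes it was 0.77 (0.86) for Egln3 and 0.96 (1.28) for Car9. It was negative for the other 2, at -0.44 (1.23) for Ndrg1 and -0.95 (0.70) for Adm. On the second strand alone, scaled by the same factors, Ndrg1 and Pgk1 had the other direction in 52 DPI pair 2 (log2 ratios 0.02 and -0.02).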

How the results depend on the processing

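With the replicate number as a block within time, edgeR called 1 gene across both times, where it called 0 without it. It called 0 in the other 5 comparisons, of which those between times within a genotype used a block shared over both times. The block changed no call of a member. The members' median log2 fold change at 25 DPI was -0.0883 with the block within time and -0.1323 with 1 block over both times, against -0.15 without, and the median difference between times was 0.1536 with the latter, against 0.19.

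DESeq2 with the block within time called 103, 35, 73 and 39 genes at 25 DPI, at 52 DPI, across both times and for the difference. With the block shared over both times it called 40 and 29 for time in control and in libraries labelled iDKO. The block within time gave member medians of -0.1004, 0.0751 and 0.1647 at 25 DPI, at 52 DPI and for the difference. Without the filter edgeR called 8, 25, 16, 19, 62 and 37 genes in the same order of comparisons, with medians of -0.1696, 0.1090 and 0.2271. DESeq2 without a block called 2, 1, 8, 0, 14 and 11, with a 52 DPI median of 0.0736, as with RLE scaling (0.0736). Limma-voom gave medians of -0.0482 at 25 DPI and 0.1612 for the difference. The second-strand column moved no count of called genes or member median beyond these limits, and no setting called a member.

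With 1 library left out, the lone library of its group is assumed to vary like the others. The members' median then ranged from -0.3253 to 0.4503 at 25 DPI, from -0.0206 to 0.4867 at 52 DPI, from -0.1413 to 0.2065 across both times and from -0.1070 to 0.5125 for the difference. The 25 DPI log2 fold change ranged from -1.0010 to 0.0665 for Aldoa, -0.9297 to 0.0744 for Tpi1, -0.9524 to 0.1033 for Aldoc, -0.0426 to 1.5047 for Slc16a1, -0.3004 to 1.5068 for Hk1, -2.1758 to 1.6431 for Ldhb, -1.8822 to 0.5584 for Car9, -0.0632 to 0.6089 for Adm and -0.7851 to 0.4582 for Egln3. The 52 DPI value ranged from -0.0339 to 0.9026 for Eno1 and -0.0031 to 1.2003 for Slc16a1. Without change of sign, the value ranged from -0.8136 to -0.0855 for Bnip3 and 0.2888 to 1.0123 for Slc16a1 across both times, and for the difference between times from 0.2016 to 1.2686 for Aldoa, 0.3788 to 1.6356 for Aldoc, 0.1136 to 1.3766 for Egln3 and -1.3241 to -0.6523 for Adm. Over time in control it ranged from -1.3112 to -0.2151 for Aldoa, 0.0836 to 1.7914 for Hif1a and 0.3810 to 2.8249 for Slc16a3. For Ldhb the difference between times ranged from -1.0491 to 2.7689, the change over time in control from -3.3046 to 0.2914 and that in libraries labelled iDKO from -1.4854 to 0.4146. The cause was not tested.

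Alternatives chosen after seeing the data were RLE scaling and library totals, which left the same 11 members with opposite directions, against 7.65% and 12.1% of all tested genes. The second-strand column for replicate 2, with its own TMM factors, left 9 of them (7.54%), without Pfkl and Pgk1, and the same column with library totals left all 11 (11.7%).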
